A study of Mus musculus with 8 samples.

Results

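The glycolysis and hypoxia module was a fixed list of 44 gene symbols, all of which were found among the 38918 gene rows of the deposited table. It held the glycolytic enzymes, the glucose and lactate transporters, the phosphoglucomutases, the kinases that set the pace of glycolysis and of pyruvate use (the PFKFB and PDK families), the hypoxia-inducible factors with 2 of their prolyl hydroxylases, and 7 genes known as targets of these factors. The rule names the members by known function and uses no measured value, but the list was drawn up with earlier results of these data known. Of the 44, 36 reached at least 1 CPM (exon reads scaled to the same library total) in at least 1 library and are called measured below.

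Glycolysis breaks glucose down to pyruvate in the cytosol, and rapidly dividing lymphoid cells turn much of that pyruvate into lactate. Under low oxygen the prolyl hydroxylases (the Egln genes) stop marking the HIF alpha subunits for destruction, and the stabilised factors bind sites with the core ACGTG or GCGTG near many glycolytic genes and near genes of mitophagy, protein folding, collagen hydroxylation and angiogenesis. Several of these targets, Egln3 among them, also act back on the pathway.

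The cells were BMiFLT3 (15-3), a line of pro-B cells from a mouse B-cell precursor acute lymphoblastic leukaemia. The control group received a retrovirus for blue fluorescent protein (BFP) and the other group a retrovirus for Klf2, a zinc-finger transcription factor of lymphoid and endothelial cells, and the question was which genes Klf2 regulates. The deposited columns of either group carry BFP in their names, so the Klf2 cells may hold it as well, and neither the time after infection nor the oxygen level of the culture is given in the labels. The 4 samples of a group are sequencing lanes, so each group holds 1 library and no test between the conditions can be made. Of the 2 library kits in the protocol, the one used for each library is not told, so kit and construct cannot be told apart.

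The BFP library held 30133978 exon reads and the Klf2 library 30835450. Lanes of a library differed by about sampling noise over all genes (chi-square per degree of freedom 1.29 in BFP and 1.27 in Klf2) and over the 36 measured members (0.839 and 0.970), and were summed. Klf2 itself was at 10.1 CPM in BFP and 113 CPM in Klf2, which matches the labels. Of 15 pro-B markers, 11 were measured, 8 with an interval below 1 and 3 above, with a summed level of 4106 CPM in BFP and 4201 CPM in Klf2. Vpreb1 (488 to 727 CPM) and Igll1 (611 to 873 CPM) were higher and Cd93 (571 to 351 CPM) lower, while Rag1, Rag2, Dntt and Kit had at most 9 reads in either library. Among markers of other cells, 3 of 8 T cell genes (with Cd3e, Cd4 and Cd8a at 0 reads), 2 of 11 myeloid genes, 0 of 7 erythroid genes and 1 of 8 stromal and endothelial genes were measured. Their summed levels were 54.3 and 53.9 CPM for T cells, 8.49 and 5.52 CPM for myeloid cells, 1.42 and 0.937 CPM for erythroid cells, and 46.1 and 58.9 CPM for stromal and endothelial cells, in BFP and Klf2. Single genes carried the T cell sum and the stromal and endothelial sum: Cd2 was at 49.4 and 45.3 CPM, and Pecam1 at 45.1 and 58.4 CPM. Most of the myeloid sum came from Csf1r (3.76 and 2.34 CPM) and Cd14 (3.70 and 2.01 CPM), both with an interval below 1. The other measured T cell genes were higher with Klf2, Trac at 3.96 and 6.96 CPM and Thy1, past the 2-fold rule, at 0.515 and 1.24 CPM. What part such cells play in the members' values was not tested.

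Across the module, 25 of 36 measured members were lower with Klf2 and 8 were higher, counting those whose 95% interval excluded a ratio of 1. Ratios are CPM in Klf2 over CPM in BFP after scaling by trimmed means (TMM), and the interval is exact (Clopper-Pearson), conditional on the summed reads, and covers counting error only. Over all 10850 measured genes, 37.3% had an interval below 1 and 37.1% above 1, so the members' share below 1 (69.4%) was larger and their share above 1 (22.2%) smaller than the background. The median log2(CPM + 1) difference, Klf2 minus BFP, was -0.50 over the measured members and -0.01 over all measured genes. Of the members, 19 stood among the 20% of genes with the highest mean CPM, whose own median was 0.17. In bulk RNA, fewer cells expressing a gene and less RNA per cell cannot be told apart.

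5 members were at least 2-fold lower with Klf2, namely Bnip3l, Bnip3, Egln3, P4ha1 and Aldoa, which is 13.9% of the measured members against 5.67% of all measured genes. None was at least 2-fold higher, against 2.45% of all genes, and Aldoc passed that limit only where lane 2 was left out (ratio 2.14 on few reads). How many members passed depends on the scaling: scaled on the 20% of genes with the lowest mean CPM, 2 passed (Bnip3 and Bnip3l), and on the highest 20%, 8 passed, with Hk1, Tpi1 and Ero1l added. Over all genes the split was 615 lower and 266 higher as reported, 419 and 571 on the lowest 20%, and 881 and 162 on the highest 20%. Nearest to the 2-fold limit on its inner side was Aldoa at 0.474, and nearest outside was Ero1l at 0.525.

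**Figure D1:**
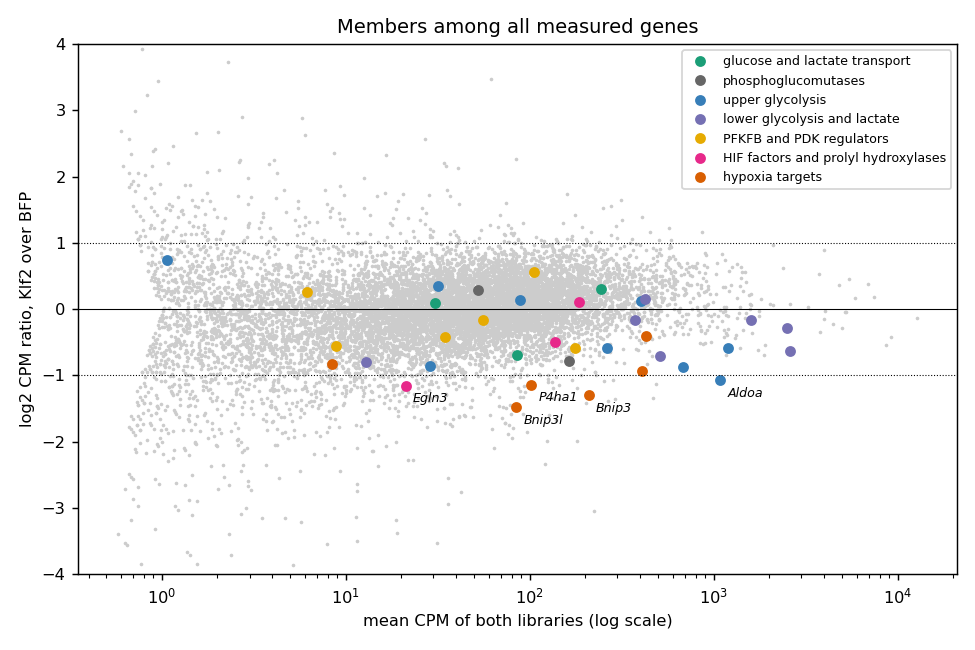
Log2 CPM ratio, Klf2 over BFP (vertical axis; a few grey genes lie beyond its range), against the mean CPM of both libraries (horizontal axis, log scale). Grey points are all measured genes, coloured points the 36 measured members by role, and dotted lines the 2-fold limits; the 5 named members lie below the lower line and none lies above the upper one.

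The hypoxia targets were the group with the lowest median, -1.03, and all 6 measured ones were lower, against 37.3% of all measured genes. P4ha2, a prolyl 4-hydroxylase subunit of collagen synthesis, had 0 reads in both libraries. Relative to the raw library totals, without the TMM factor, this allows at most 0.0996 CPM in BFP and 0.0973 CPM in Klf2.

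Bnip3 and Bnip3l encode related outer mitochondrial membrane proteins that act as receptors for mitophagy. The deposited RPKM (reads relative to exon length and lane total) of Bnip3 was 113, 117, 114 and 117 in the 4 BFP lanes and 42.7, 44.3, 43.9 and 44.9 in the 4 Klf2 lanes. The lanes of the 2 libraries did not overlap, and the Klf2 lanes were low. On the CPM scale Bnip3 had 9268 reads (298 CPM) in BFP and 3615 reads (121 CPM) in Klf2, a ratio of 0.406 (95% interval 0.390 to 0.422). Of its reads 82.4% were uniquely placed, and the ratio on those was 0.417.

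Bnip3l had the lowest ratio of the measured members. Its RPKM was 28.4, 28.8, 28.7 and 27.1 in the BFP lanes and 9.55, 9.03, 9.88 and 9.58 in the Klf2 lanes. Every Klf2 lane was below every BFP lane. The library values were 3877 reads (125 CPM) and 1333 reads (44.6 CPM), a ratio of 0.358 (0.336 to 0.381). Only 48.3% of its reads were uniquely placed, so its level is less certain than that of Bnip3; the ratio was 0.401 on uniquely placed reads and 0.265 on reads across exon junctions.

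P4ha1 encodes another catalytic alpha subunit of the collagen prolyl 4-hydroxylase. Its RPKM was 31.1, 28.6, 29.2 and 30.4 in the BFP lanes and 14.3, 12.2, 12.0 and 12.4 in the Klf2 lanes, again without overlap. With 4363 reads (140 CPM) in BFP and 1902 (63.6 CPM) in Klf2, the ratio was 0.454 (0.430 to 0.479). All of its reads were uniquely placed, and the ratio on junction reads was also 0.454.

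Ero1l, the oxidase that passes electrons on from protein disulfide isomerase in the endoplasmic reticulum, was at 107, 105, 107 and 105 RPKM in the BFP lanes and 53.5, 51.9, 52.0 and 52.2 RPKM in the Klf2 lanes. Its ratio of 0.525 (0.511 to 0.539) came from 16661 reads (536 CPM) and 8406 reads (281 CPM), and it was 0.488 on junction reads. Ankrd37, an ankyrin repeat protein gene, was a low one, with 334 reads (10.7 CPM) in BFP and 181 (6.06 CPM) in Klf2, a ratio of 0.564 (0.468 to 0.678) and 92.6% uniquely placed reads. Its span meets Lrp2bp (17 reads in BFP and 30 in Klf2) over 565 bases and Ufsp2 (1000 and 1302 reads) over 57. Since nothing states whether counting used strand, reads there may not be separated. Vegfa, the angiogenic growth factor, moved least of the 6, from 15217 reads (489 CPM) to 10994 (368 CPM), a ratio of 0.752 (0.734 to 0.771).

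**Figure D2:**
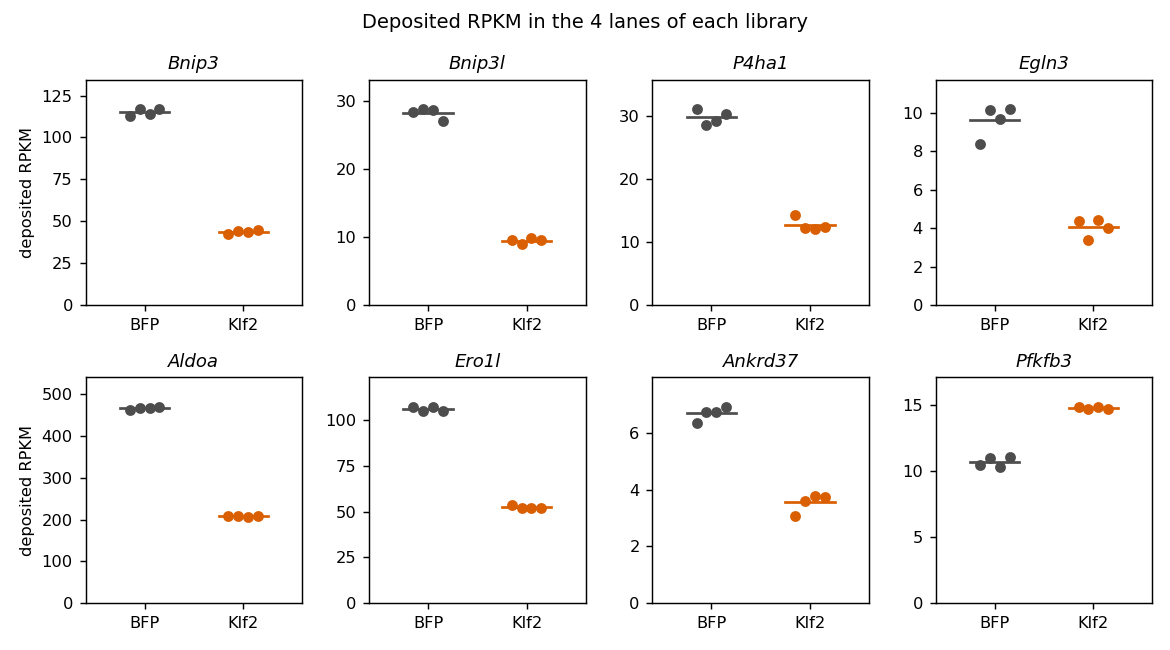
Deposited RPKM (vertical axes, each from 0 and with its own scale) of 8 members in the 4 lanes of the BFP library and the 4 lanes of the Klf2 library; points are lanes and bars their means. Lanes of a library are technical, so their spread is not biological error; the Klf2 lanes lie below the BFP lanes in 7 panels and above them for Pfkfb3.

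Neither HIF alpha subunit was lower beyond its counting error. Hif1a, the oxygen-regulated alpha subunit, had 5527 reads (178 CPM) in BFP and 5732 (192 CPM) in Klf2, a ratio of 1.08 (1.04 to 1.12), and its RPKM lanes overlapped (24.4 to 27.6 in BFP, 26.3 to 27.2 in Klf2). Only 27.6% of its reads were uniquely placed, with a ratio of 1.10 on those, and its direction turned with scaling on the highest 20% of genes (0.961). Epas1, the alpha subunit HIF-2, had 2 reads in BFP and 1 in Klf2 and is at or under the limit of detection.

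Both prolyl hydroxylases of the module were measured and were lower. Egln2, a prolyl hydroxylase outside the module and the naming rule, had an interval that includes 1 (ratio 0.976, 0.913 to 1.04). Egln3 was at 8.40, 10.2, 9.71 and 10.2 RPKM in the BFP lanes and 4.38, 3.40, 4.44 and 4.0 RPKM in the Klf2 lanes, which did not overlap. Its library values were 910 reads (29.3 CPM) and 392 reads (13.1 CPM), a ratio of 0.448 (0.397 to 0.505), with 100% uniquely placed reads and a junction ratio of 0.302 on 98 and 29 reads. Egln1, the main oxygen sensor of most cells, had 4978 reads (160 CPM) and 3389 reads (113 CPM), a ratio of 0.708 (0.678 to 0.740).

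The promoters of the members that were at least 2-fold lower are shown because HIF binds a short core motif that can be read in them. Sequences are RefSeq's, of the 250 bases before a transcription start in GRCm38.p6, the assembly of mm10, and 41 of the 44 members matched a window; Bnip3l, Slc2a3 and Epas1 had none. Capitals mark ACGTG or GCGTG on either strand (read as CACGT or CACGC on the opposite one), all written 5′ to 3′ on the gene's own strand. Aldoa has several annotated starts, and all of its windows lie inside the gene's span as deposited (chr7:126795234-126800751). The Aldoa window shown was chosen because it holds the motif. Another window overlapping it (chr7:126799179-126799428) holds the same copy, and both are counted below.

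Bnip3, chr7:138909507-138909756, minus strand: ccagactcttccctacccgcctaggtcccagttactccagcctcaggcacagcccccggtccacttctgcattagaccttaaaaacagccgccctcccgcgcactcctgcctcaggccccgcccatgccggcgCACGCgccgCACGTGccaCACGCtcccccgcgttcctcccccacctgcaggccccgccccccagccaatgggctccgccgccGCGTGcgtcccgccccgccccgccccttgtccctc
Egln3, chr12:54203875-54204124, minus strand: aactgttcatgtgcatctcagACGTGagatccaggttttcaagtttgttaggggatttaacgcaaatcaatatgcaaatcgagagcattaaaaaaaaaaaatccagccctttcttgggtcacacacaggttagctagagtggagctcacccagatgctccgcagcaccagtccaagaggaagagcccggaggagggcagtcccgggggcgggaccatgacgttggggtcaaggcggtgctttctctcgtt
P4ha1, chr10:59323046-59323295, plus strand: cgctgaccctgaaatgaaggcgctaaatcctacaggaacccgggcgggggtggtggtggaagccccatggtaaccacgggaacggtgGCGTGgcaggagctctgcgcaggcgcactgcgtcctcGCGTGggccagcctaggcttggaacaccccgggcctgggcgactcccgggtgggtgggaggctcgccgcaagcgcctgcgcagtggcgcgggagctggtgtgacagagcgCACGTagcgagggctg
Aldoa, chr7:126799255-126799504, minus strand: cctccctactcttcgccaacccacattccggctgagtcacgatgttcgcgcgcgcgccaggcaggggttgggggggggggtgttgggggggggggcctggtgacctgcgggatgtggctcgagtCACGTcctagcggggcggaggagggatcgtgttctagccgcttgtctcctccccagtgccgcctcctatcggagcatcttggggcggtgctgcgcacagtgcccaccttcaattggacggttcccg

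Each of these 4 windows holds ACGTG, for Aldoa through the choice of window. In Bnip3 it lies inside the palindrome CACGTG, which is read on both strands. Bnip3 holds 3 copies of GCGTG and P4ha1 holds 2, while the windows of Egln3 and Aldoa hold none. The outermost Aldoa window (chr7:126800448-126800697) holds neither motif.

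Members that were not 2-fold lower held the motif as well. ACGTG was found at 22 of the 34 measured members with a window, at 4 of the 4 that were at least 2-fold lower and at 18 of the other 30. Over windows, 25 of the members' 51 (49.0%) held it, against 16.6% of all 32851 windows of the same length. The members' windows were richer in G and C (median 60.4% against 52.4%), and of all windows at or above 60.4%, 22.9% held ACGTG. The form GCGTG was in 56.9% of the members' windows and 28.2% of all. The motif CACCC, the core that KLF factors bind, was in 64.7% of the members' windows and 52.0% of all. For GCGTG and CACCC, the share among windows equally rich in G and C was not computed. A match is only a description of the letters, and binding was not measured here.

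Members that were higher with Klf2 by their intervals also held ACGTG, so the motif was not particular to lower members. These were Hk2, Pfkm, Pfkfb3, Pgam1, Slc16a1, Hif1a and the row named Pgm1, while Pfkp alone of the higher members held none. Pfkfb3 is shown as an example, with ACGTG inside CACGTG and 1 GCGTG.

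Pfkfb3, chr2:11502091-11502340, minus strand: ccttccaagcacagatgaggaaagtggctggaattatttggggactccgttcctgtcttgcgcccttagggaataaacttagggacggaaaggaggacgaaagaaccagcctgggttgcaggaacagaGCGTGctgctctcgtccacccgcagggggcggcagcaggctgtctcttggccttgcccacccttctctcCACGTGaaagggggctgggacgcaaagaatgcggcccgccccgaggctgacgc

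Of the glycolytic enzymes, 11 of 16 measured (68.8%) were lower by their intervals, against 37.3% of all measured genes. The 4 higher ones were a smaller share than the 37.1% of all measured genes. At least 2-fold lower was 1 (6.25%), near the 5.67% of all measured genes. The summed level of these enzymes was 13674 CPM in BFP and 9909 CPM in Klf2. In upper glycolysis, from hexokinase to triose phosphate isomerase, the sum went from 4636 to 2910 CPM. There 5 of 9 measured genes (55.6%) were lower, against 37.3% of all measured genes. The 3 higher ones (33.3%) were near the 37.1% of all measured genes, and the median was -0.59. That median rests on which members are counted: over the upper glycolytic genes with at least 90% uniquely placed reads it was 0.12, with no floor on low values it was -0.25, and with scaling on the lowest 20% of genes -0.38.

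Aldoa, the aldolase that splits fructose 1,6-bisphosphate, had the lowest ratio of the enzymes. Its RPKM was 464, 468, 467 and 470 in the BFP lanes and 208, 209, 207 and 208 in the Klf2 lanes. The lanes of each library lay close together and far from the other library's. With 45739 reads (1471 CPM) and 20822 reads (697 CPM), the ratio was 0.474 (0.466 to 0.482). Of its reads 92.0% were uniquely placed, and it was 0.546 with scaling on the lowest 20% of genes. Aldoc, the isoenzyme best known from brain, had 25 and 40 reads and an interval that includes 1 (0.986 to 2.86).

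Tpi1, which interconverts the triose phosphates, was at 27357 reads (880 CPM) and 14315 reads (479 CPM), a ratio of 0.544 (0.534 to 0.556), with 76.4% uniquely placed reads. Gpi1, the glucose 6-phosphate isomerase, was at 44515 reads (1432 CPM) and 28490 reads (953 CPM), a ratio of 0.666 (0.656 to 0.676), with 67.7% uniquely placed. On uniquely placed reads these ratios were 0.548 and 0.665. Both genes were thus lower on either kind of reads.

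The hexokinases, which trap glucose as its 6-phosphate, differed among themselves. Hk1 had 1144 reads (36.8 CPM) in BFP and 608 (20.3 CPM) in Klf2, a ratio of 0.553 (0.50 to 0.611) with 99.8% uniquely placed reads. Hk2, the isoenzyme known to be induced in proliferating cells, had a ratio of 1.10 (1.04 to 1.16), but its RPKM lanes overlapped (11.9 to 12.9 against 12.3 to 13.1) and it turned to 0.979 on the highest 20% of genes. Hk3 had 0 and 2 reads. Per exon length, Hk2 made up 76.5% of the summed hexokinase RPKM in BFP and 86.6% in Klf2. Such a share is taken within a library and does not depend on the scaling between libraries.

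The 6-phosphofructokinases, which commit sugar to glycolysis, shifted in the same way. Pfkl, the liver form, was at 61.0, 61.8, 65.4 and 64.8 RPKM in the BFP lanes and 39.2, 40.5, 39.1 and 39.4 RPKM in the Klf2 lanes, with 9881 reads (318 CPM) and 6314 reads (211 CPM) and a ratio of 0.665 (0.644 to 0.686), all but 2 of its reads uniquely placed. Pfkm, the muscle form, was higher at 1.27 (1.16 to 1.39), and Pfkp, the platelet form, was at 1.09 (1.06 to 1.11) with overlapping lanes and 0.967 on the highest 20% of genes. Pfkl went from 58.8% to 45.9% of the family's summed RPKM, Pfkp from 33.5% to 42.7% and Pfkm from 7.68% to 11.5%. The span of Pfkm meets Senp1 over 1156 bases and that of Pfkp meets Pitrm1 over 372, so a part of their reads may belong to those genes.

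**Figure D3:**
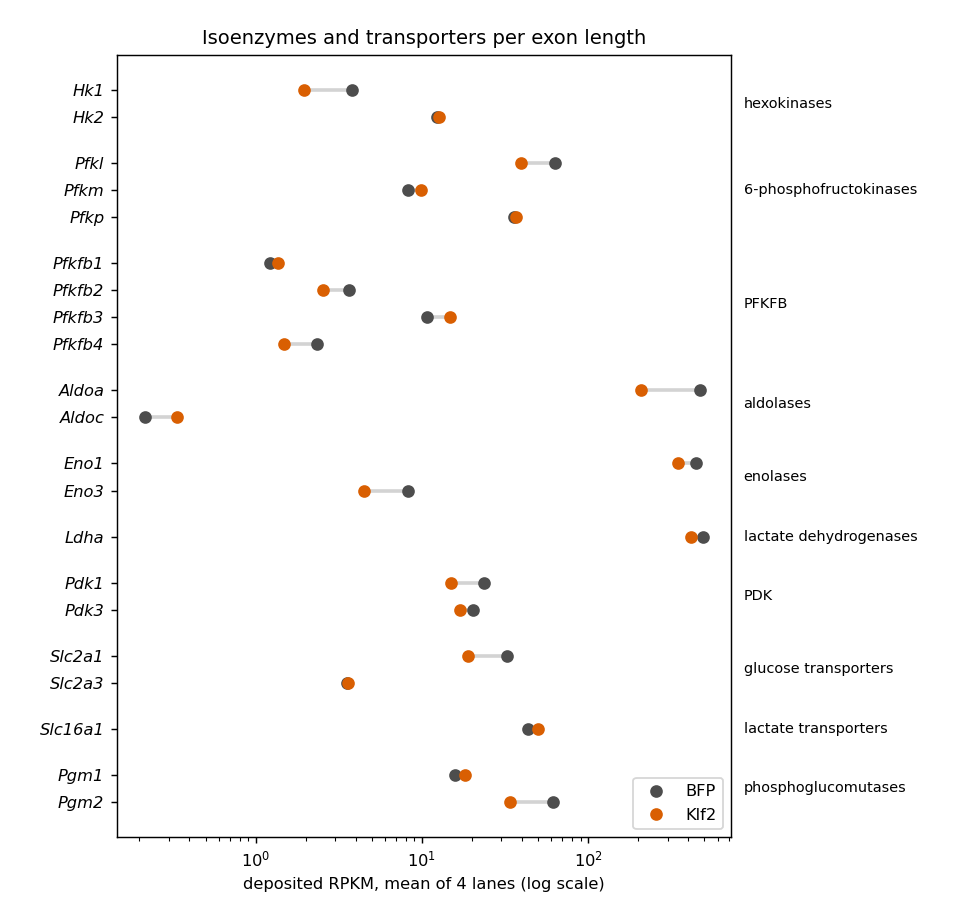
Mean deposited RPKM of the 4 lanes (horizontal axis, log scale) for isoenzymes and transporters, grouped by family, in BFP (dark) and Klf2 (orange); grey lines join the 2 libraries. Members with a mean under 0.1 RPKM are not drawn, and one form dominated the aldolases, enolases, lactate dehydrogenases and lactate transporters in both libraries.

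In lower glycolysis, from glyceraldehyde 3-phosphate to lactate, 6 of 7 measured genes were lower (85.7%) and 1 higher (14.3%). Over all measured genes these shares were 37.3% and 37.1%. None of the 7 was at least 2-fold apart, and their median was -0.28. That median was -0.08 with scaling on the lowest 20% of genes and -0.17 with no floor. Of the 7, only Eno3 had at least 90% of its reads uniquely placed, and its log2 difference was -0.73. The group's sum was 9037 CPM in BFP and 6999 CPM in Klf2. Pkm, pyruvate kinase, had the highest level of the module per exon length, at 1064, 1057, 1060 and 1070 RPKM in the BFP lanes and 644, 648, 652 and 641 RPKM in the Klf2 lanes. It had 98183 reads (3158 CPM) and 61041 reads (2043 CPM), a ratio of 0.647 (0.640 to 0.654), 68.4% of them uniquely placed with a ratio of 0.636. The table counts the gene as a whole, so its M1 and M2 forms are not separated.

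Eno3, the muscle enolase, was at 508 reads (16.3 CPM) and 282 reads (9.44 CPM), a ratio of 0.578 (0.498 to 0.669) with 100% uniquely placed. Eno1, the ubiquitous form that held 98.2% of the enolase RPKM in BFP and 98.7% in Klf2, had a ratio of 0.822 (0.814 to 0.830). Only 12.5% of the Eno1 reads were uniquely placed, and its ratio was 0.809 on those and 0.783 on junction reads. Eno2 had 1 and 0 reads. Ldha, which turns pyruvate into lactate, had a ratio of 0.891 (0.880 to 0.902), and Ldhb had 1 and 0 reads. The Ldha ratio was 1.03 with scaling on the lowest 20% of genes, so its direction is not settled by these 2 libraries.

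Of the lower glycolytic genes, Pgk1, Pgam1, Eno1 and Gapdh had under 50% of their reads uniquely placed, so reads of near-identical copies may be counted in their levels. Pgk1, phosphoglycerate kinase, had 19710 reads (634 CPM) and 11595 reads (388 CPM), a ratio of 0.612 (0.598 to 0.626), but 2.12% of its reads were uniquely placed, with a ratio of 0.702 (0.599 to 0.822) on those and 0.598 on junction reads. Its annotated copy Pgk1-rs7 had 175 and 106 reads, none of them uniquely placed. Gapdh, with 40.9% uniquely placed, was at a ratio of 0.895 by all exon reads, 0.827 by uniquely placed and 0.783 by junction reads, and at 1.03 with scaling on the lowest 20% of genes. Pgam1, phosphoglycerate mutase, was the higher one, at 1.11 (1.08 to 1.14), with 2.96% uniquely placed, 1.03 (0.937 to 1.12) on junction reads and 0.988 on the highest 20% of genes.

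**Figure D4:**
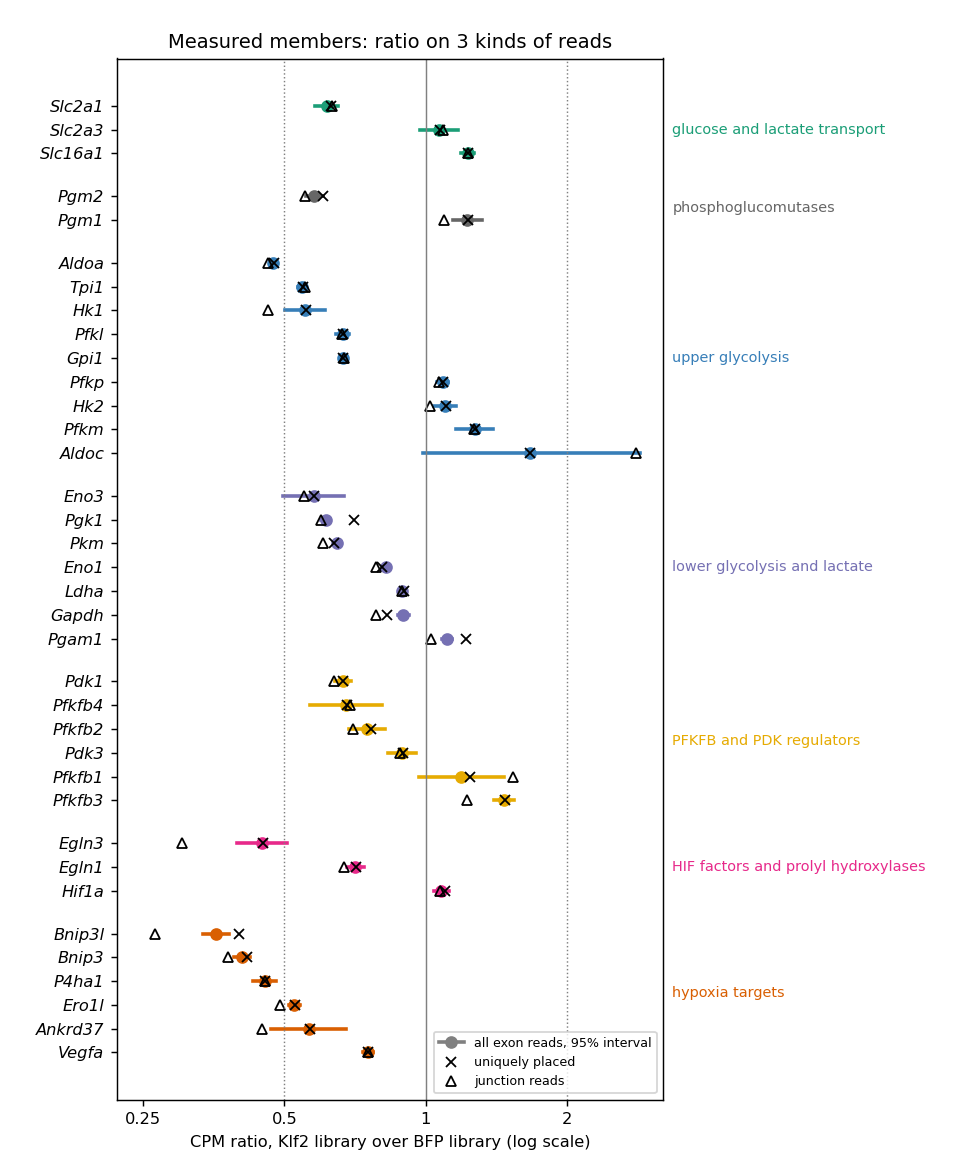
CPM ratio, Klf2 over BFP (horizontal axis, log scale), of the 36 measured members by role. Circles with 95% counting intervals are all exon reads, crosses uniquely placed exon reads and triangles reads across exon junctions; dotted lines mark 2-fold, and all 3 kinds of reads lay on the same side of 1 for each of the 36 members.

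Glucose enters through Slc2a1 (GLUT1) and Slc2a3 (GLUT3), and lactate leaves through Slc16a1 and Slc16a3. Slc2a1 was at 32.1, 33.9, 32.4 and 31.6 RPKM in the BFP lanes and 18.6, 19.9, 17.9 and 18.9 RPKM in the Klf2 lanes, with 3297 reads (106 CPM) and 1950 reads (65.3 CPM), a ratio of 0.615 (0.582 to 0.651) and 53.9% uniquely placed (0.629 on those). Slc2a3 had a ratio of 1.07 (0.973 to 1.17), and its lanes overlapped. The share of Slc2a1 in the summed RPKM of both was 90.1% in BFP and 84.0% in Klf2. Slc16a1 was higher with Klf2, at 220 CPM in BFP and 270 CPM in Klf2, a ratio of 1.23 (1.19 to 1.27), and its lanes did not overlap. Slc16a3 had 11 and 8 reads, under 1 CPM in both libraries.

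The phosphoglucomutases link glucose 6-phosphate with glucose 1-phosphate and so with glycogen. The table and RefSeq use the symbols Pgm1 and Pgm2 for each other's gene, so positions are given here. The row named Pgm2 (chr4:99929414-99987294) had 6420 reads (206 CPM) and 3569 reads (119 CPM), a ratio of 0.578 (0.555 to 0.603) with 92.0% uniquely placed, and its span meets Itgb3bp over 400 bases. The row named Pgm1 (chr5:64092936-64128355) went the other way, from 47.0 to 57.6 CPM, a ratio of 1.23. The chr4 gene held 79.7% of their summed RPKM in BFP and 64.9% in Klf2.

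The PFKFB enzymes make and break fructose 2,6-bisphosphate, the strongest activator of phosphofructokinase, and Pfkfb3 is the form with the most kinase activity. Pfkfb3 was the only member with a log2 difference over 0.5 upward (0.55). Its RPKM was 10.4, 11.0, 10.3 and 11.0 in the BFP lanes and 14.9, 14.7, 14.8 and 14.7 in the Klf2 lanes, so that here every Klf2 lane was above every BFP lane. It had 2671 reads (85.9 CPM) and 3772 reads (126 CPM), a ratio of 1.47 (1.40 to 1.54) with 99.9% uniquely placed, and 1.22 (1.06 to 1.41) on junction reads.

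The other PFKFB members went both ways. Pfkfb4 had 327 reads (10.5 CPM) and 213 reads (7.13 CPM), a ratio of 0.678 (0.568 to 0.808) with 100% uniquely placed, and Pfkfb2 had a ratio of 0.749 (0.687 to 0.817). Pfkfb1 had 175 and 200 reads and a ratio of 1.19 with an interval that includes 1 (0.966 to 1.47). On uniquely placed reads its ratio was 1.24 (1.01 to 1.53) and on junction reads 1.53 (1.06 to 2.22), both above 1, and its span meets Apex2 over 1640 bases. Pfkfb3 thus went from 59.8% to 73.2% of the family's summed RPKM.

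The PDK kinases switch off pyruvate dehydrogenase and so keep pyruvate out of the mitochondrion. Pdk1 was at 23.7, 24.3, 23.5 and 23.6 RPKM in the BFP lanes and 15.0, 15.3, 14.4 and 14.9 RPKM in the Klf2 lanes, with 6575 reads (211 CPM) and 4205 reads (141 CPM) and a ratio of 0.665 (0.640 to 0.692), all uniquely placed. Pdk3 had a ratio of 0.891 (0.832 to 0.953), and 1.03 with scaling on the lowest 20% of genes. Pdk2 and Pdk4 had 0 reads in both libraries. Pdk1 held 54.0% of the summed PDK RPKM in BFP and 46.7% in Klf2, with Pdk3 holding the rest.

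On junction reads alone, 8 members were at least 2-fold lower (6.47% of all genes measured on those reads), with Ero1l, Ankrd37 and Hk1 added. On the RPKM scale, which has no TMM factor, all 4 Klf2 lanes lay below all 4 BFP lanes for 25 of 36 members, against 37.9% of all measured genes, and above them for 5 (Pfkm, Pfkfb3, Pgam1, Slc16a1 and the row named Pgm1), against 26.5%. The lanes overlapped for 6 (Slc2a3, Hk2, Pfkp, Pfkfb1, Aldoc and Hif1a). In the authors' deposited table the signed fold, a ratio of mean RPKM, was -2.97 for Bnip3l, -2.62 for Bnip3, -2.37 for Egln3, -2.34 for P4ha1 and -2.25 for Aldoa, with -2.03 for Ero1l and 1.38 for Pfkfb3.

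Reads inside a gene but outside its exons can come from unspliced RNA, and they were taken as uniquely placed gene reads less uniquely placed exon reads. They made up 13.6% of the uniquely placed gene reads in both libraries, and ratios were scaled by their own totals. Of the 33 members with at least 50 such reads, 16 had an interval below 1 and 10 above, against 34.6% below and 23.8% above over all 8748 genes with as many, and the median ratio was 0.890 against 0.935.

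Members differed in whether both kinds of reads went the same way. Bnip3 (0.421, 0.306 to 0.572), P4ha1 (0.560, 0.493 to 0.634), Ero1l (0.726, 0.671 to 0.786), Pfkfb4 (0.435, 0.333 to 0.565) and the row named Pgm2 (0.530, 0.496 to 0.567) were lower outside exons too. For Egln1, Slc2a1, Pgk1 and Gapdh the ratio outside exons was above 1, at 1.58 (1.39 to 1.79), 1.30 (1.12 to 1.52), 1.79 (1.47 to 2.18) and 2.02 (1.65 to 2.5), while their exon ratio was below 1. Aldoa had only 63 and 50 such reads, with an interval of 0.522 to 1.14. Such reads can also come from unannotated exons or another gene in an intron, and what part these play was not tested.

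**Figure D5:**
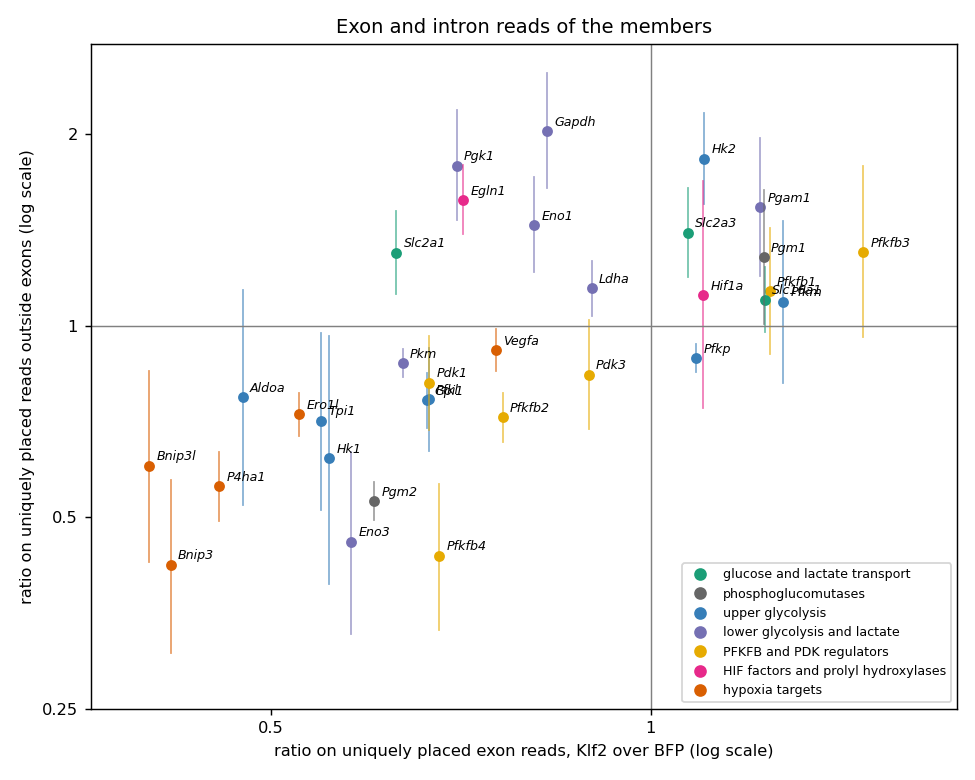
Ratio on uniquely placed reads outside exons (vertical axis, log scale, with 95% counting intervals) against the ratio on uniquely placed exon reads (horizontal axis, log scale), Klf2 over BFP, for the 33 members with at least 50 reads outside exons, coloured by role. The upper left part holds members lower on exon reads and above 1 outside exons, among them Gapdh, Pgk1, Egln1, Slc2a1, Eno1 and Ldha.

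Genes of the same pathway that are not members were taken from lists by known function. Among 33 other hypoxia targets 26 were measured, with a median of -0.40. Of these, 19 (73.1%) had an interval below 1 and 5 (19.2%) above, against 37.3% and 37.1% of all measured genes. At least 2-fold lower were 5 (19.2%, against 5.67% of all measured genes), and 1 was at least 2-fold higher, against 2.45%. Ndrg1, a stress-response gene, fell from 14.2 to 4.15 CPM (ratio 0.292, 0.237 to 0.357, with 56.4% uniquely placed). Cited2, which competes with HIF for its coactivators, fell from 386 to 148 CPM (0.383, 0.370 to 0.396). Bhlhe40, a transcriptional repressor, fell from 206 to 80.6 CPM (0.391, 0.373 to 0.409), and Hmox1, heme oxygenase, from 79.0 to 36.2 CPM (0.459, 0.427 to 0.493). Outside the naming rule, and chosen after their values were seen, Ier3 was the fifth lower gene (0.427) and Loxl2 the higher one (17 and 49 reads, with 1.52% of them uniquely placed). Also above 1 were Car12 at 1.69 (1.57 to 1.83), Car9 at 1.46 (1.06 to 2.01), Tfrc at 1.21 and Jmjd6 at 1.10.

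The oxygen-sensing partners of HIF were mixed, with 4 of 10 measured genes (40.0%) below 1, 3 (30.0%) above and a median of -0.04. Over all measured genes 37.3% were below 1 and 37.1% above. None of the 10 was at least 2-fold apart. Vhl, the ubiquitin ligase subunit that recognises hydroxylated HIF, had a ratio of 0.715 (0.633 to 0.807), while Tceb1, elongin C of the same complex, had 1.72 (1.59 to 1.86). The HIF coactivators Crebbp and Ep300 were at 0.639 (0.609 to 0.671) and 0.697 (0.672 to 0.723).

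Of the other glucose transporters and lactate carriers, all 4 measured were below 1, with a median of -0.66, while 37.3% of all measured genes were. Slc2a6 fell from 6.56 to 2.74 CPM (0.418, 0.320 to 0.543), and Slc2a9, a urate and hexose carrier, was at 10.8 and 5.42 CPM, just short of the 2-fold limit. Bsg, the chaperone that brings the Slc16a lactate carriers to the membrane, had a ratio of 0.733 (0.715 to 0.752), the opposite direction to Slc16a1. Among 6 other measured glycolytic genes, 2 were below 1 and 3 above, with a median of 0.10, and the muscle mutase Pgam2 fell from 3.25 to 1.51 CPM (0.464, 0.319 to 0.665).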

How the data were processed

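Per the labels' protocols, poly(A) RNA of both cell populations was read on a HiSeq system. The tool CASAVA 1.8.2 and the build mm10 come from the submitters' processing notes. For the aligner, counter, annotation and strand setting, a statement was not given in the sources used here. The authors deposited 1 table with, for each of 4 lanes per group, counts of exon, uniquely placed, junction and gene reads, and RPKM, per the file headers. The RPKM were recomputed from the deposited reads and exon lengths (largest difference 0.0258). The authors' deposited fold is a signed score per gene.

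Lanes were summed to 1 library per group after a chi-square check (limit 1.5 per degree of freedom, genes with at least 20 reads). Counts were scaled to CPM with TMM (edgeR 4.0.16 in R 4.3.3), which shifts log2 ratios by 0.09 against total reads. Intervals came from scipy 1.17.1, and a gene was measured at 1 CPM or more in either library. A member was called at a 2-fold ratio with a 95% interval excluding 1, and log2 differences used a pseudocount of 1 CPM. With 1 library per group no p-value is given. The calls were tested on simulated data, drawn around the BFP counts with counting error only. Of 10597 unchanged genes 9 were called, and of 50 genes at each of 0.25-, 2.5- and 4-fold, 49, 49 and 50 were. The simulated libraries hold no difference between separate cultures, so they cannot show how the calls fare against it. Intervals and limits at 0 reads (3 counts) cover counting error only, and reads without molecular identifiers are not independent molecules.

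The members and all lists were chosen with earlier results of these data known. Members called, or with an excluding interval and a log2 difference of at least 0.5 in size, are given with reads and CPM, and of each other list up to 4 genes with the largest size of difference. Alternatives were other scalings (DESeq2 1.42.0 among them), kinds of reads, floors, pseudocounts and lanes left out. 14 measured members overlap another gene row by position, and in 5 that row holds at least 10% of the member's reads. Motifs were searched on both strands, a copy inside a palindrome counting on each.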

Additional observations from a re-analysis of the deposited data

How the results depend on the processing

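The count of members at least 2-fold lower was 5 as reported. It was 8 with scaling on the highest 20% of genes, 2 on the lowest 20%, 8 on junction reads (with Ero1l, Ankrd37 and Hk1 added, against 6.47% of all genes on those reads) and 3 over members with at least 90% uniquely placed reads, an alternative chosen after seeing the data. The other alternatives gave 5 or 6, and leaving out each lane in turn gave 5 to 5 lower, with all 5 genes shared, 0 to 1 higher, and a median of -0.53 to -0.45. The median over members lay between -0.65 and -0.31 in all settings. On the highest 20% of genes the direction turned for Hk2 (0.979), Pfkp (0.967), Pgam1 (0.988), Hif1a (0.961) and the median of the transporters (-0.072, and -0.0023 with no floor). On the lowest 20% it turned for Gapdh (1.03), Ldha (1.03) and Pdk3 (1.03), and the median of upper glycolysis was 0.12 over its members with at least 90% uniquely placed reads. In the all-gene split of lower and higher calls, deposited RPKM gave 559 and 128 and total-count scaling 757 and 205. Of the members' ratios under alternatives, 285 moved by less than their counting interval, 140 by more and 7 turned. The causes were not tested. No paired analysis was possible because the shared replicate numbers are lanes of 1 library per group, which leaves no test to pair. Depth limits Hk3, Eno2, Ldhb, Slc16a3 and Epas1, which had at most 11 reads, and Aldoc.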

Other observations

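Genes of the pathways that take carbon on from glycolysis were read on the same scale. Over all measured genes 37.1% had an interval above 1, and among the 20% of genes with the highest mean CPM 61.5% did, with a median log2 difference of 0.17. Of 18 measured genes of the TCA cycle, 17 (94.4%) had an interval above 1 and 0 below, none at least 2-fold, with a median of 0.41. Fh1, fumarase, went from 46.1 to 83.0 CPM (ratio 1.8, 1.68 to 1.92), Idh3a, a subunit of the NAD-linked isocitrate dehydrogenase, from 93.2 to 150 CPM (1.61, 1.53 to 1.68), Sdhd, a membrane anchor of succinate dehydrogenase, from 101 to 153 CPM (1.5, 1.44 to 1.57) and Idh2 from 121 to 172 CPM (1.43, 1.37 to 1.49). In the pentose phosphate pathway 7 of 10 measured genes (70.0%) were above 1, near the share among the most abundant genes, and 0 below, with a median of 0.28. Prps2, which makes the ribose donor of nucleotide synthesis, rose from 50.8 to 113 CPM (2.22, 2.09 to 2.36), and Prps1, Tkt and Taldo1 had ratios of 1.54, 1.44 and 1.29. The genes of pyruvate entry and dehydrogenation were mixed, with 4 of 11 above 1, 2 below and a median of 0.03. Among them Pdhx had a ratio of 1.45, Dld 1.31, Dlat 1.29 and Pdpr, the regulatory subunit of the dehydrogenase phosphatase, 0.751.

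The list of gluconeogenesis and glycogen had 9 of 11 measured genes (81.8%, against 37.3% of all genes) below 1 and 0 above, with a median of -0.35. Gbe1, the glycogen branching enzyme, fell from 23.7 to 11.2 CPM (0.472, 0.413 to 0.537), Fbp1 had a ratio of 0.668, Gyg, the glycogen primer, 0.691, and Gys1, glycogen synthase, 0.712. Among 15 measured regulators of glycolysis and glucose uptake outside HIF, 6 were below 1 (40.0%) and 4 above (26.7%), with a median of -0.04. Txnip, an inhibitor of glucose uptake, rose from 51.1 to 111 CPM (2.17, 2.04 to 2.30), but 17.3% of its reads were uniquely placed and the ratio on those was 1.87, short of 2-fold. Sco2, a copper chaperone of cytochrome oxidase, fell from 3.06 to 1.17 CPM (0.383, 0.252 to 0.570) with none of its reads uniquely placed. Prkaa2, a catalytic subunit of AMP kinase, had a ratio of 0.620 (0.553 to 0.695), and Mlxip, a glucose-sensing transcription factor, had 0.781 (0.752 to 0.811).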
